A study of Mus musculus with 13 samples.

Results

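Epidermal stem cells of Fbln7 knockout mice were compared between 2 ages, 1 year and 2 months. The comparison uses 7 of the 13 libraries of the study, chosen by their titles: 3 knockout libraries at 2 months and 4 at 1 year. The other 6 libraries come from wild-type mice of the same ages. They served mainly to estimate the effect of the run, a grouping read from a token in the deposited names. All animals carry the strain label C57BI/6, the cell type label is epidermal stem cells, and the source is back skin epidermis that was dissociated with trypsin and antibody-stained before flow sorting into Trizol. The knockout is labelled Fbln7 KO. How the allele was made, the sorting markers, the sex of the animals, and whether a library is 1 animal or a pool are not given in the sources used here, so p-values measure the spread between these libraries.

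The epidermis is renewed by basal keratinocytes that sit on a basement membrane of laminins and type IV collagen. Hemidesmosomes and anchoring fibrils of type VII collagen fasten these cells to the dermis. Cells that leave the basal layer switch from the keratins Krt5 and Krt14 to Krt1 and Krt10 in the spinous layer, and then make loricrin and filaggrin proteins in the granular layer. Fibulin-7, the product of Fbln7, is a matrix glycoprotein that cells secrete.

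Total gene reads in the knockout libraries ranged from 6428118 to 11475039. The share on Rn18s-rs5, a ribosomal RNA entry, was 18.3, 29.2 and 4.75% in 2-month replicates 1 to 3. In 1-year replicates 1 to 4 that share was 13.6, 14.4, 2.64 and 2.62%. Run tokens in the deposited names divided the libraries into runs A, B and C. At 2 months, knockout replicates 1 and 2 belong to run A and replicate 3 to run C. At 1 year, replicates 1 and 2 belong to run B and replicates 3 and 4 to run C. Age and run can therefore be told apart only through run C, which holds 1 knockout library at 2 months and 2 at 1 year. Counts were fitted with edgeR's quasi-likelihood test with terms for group and run, and a gene was called at a Benjamini-Hochberg adjusted p under 0.05. Levels are given in CPM, in which depth and the TMM factor of each library have been divided out. They do not carry the run term, whereas log2 fold changes do. Reads of Xist and Ddx3y, transcribed from the inactive X and from the Y chromosome, differed within both ages. In run C, 2-month replicate 3 and 1-year replicate 3 had 10891 and 13317 Xist reads, and 1-year replicate 4 had 5 Xist and 527 Ddx3y reads.

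Defining genes of the labelled cell type were abundant in every knockout library. Krt5 lay between 4034 and 6707 CPM, Krt14 between 3108 and 6303 CPM, and Trp63, a transcription factor of basal keratinocytes, between 642.8 and 1064 CPM. None of these 3 was called. Fbln7 itself was near the limit of detection. It had 2, 1 and 1 reads at 2 months and 9, 10, 28 and 0 reads at 1 year, or 0.196 ± 0.106 CPM (SD, n = 3) against 1.13 ± 0.793 CPM (SD, n = 4). The 0 reads in 1-year replicate 4 allow up to 0.221 CPM, counting error only. The exact two-sided permutation p was 0.143, where 0.0286 is the smallest that 35 splits of 7 libraries allow. The wild type had 0, 0.350 and 1.16 CPM at 2 months and 2.33, 1.54 and 2.42 CPM at 1 year. Knockout replicate 3 at 1 year, with 1.83 CPM, thus lay above 1 of the 3 older and all 3 younger wild-type libraries. The edgeR log2 fold change of 1.94 (SE 1.51, adjusted p = 0.474) turned to -0.40 without 2-month replicate 3, and was 3.05 with a narrow call (adjusted p = 0.0499 in edgeR) when the replicate number took the place of run. Fbln7 reads were therefore present in 3 of 4 libraries labelled knockout at 1 year, and the libraries are named by their labels throughout.

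With age, 455 of 14740 genes were called in the knockout, 3.09% of those tested, 300 higher (2.04%) and 155 lower (1.05%) at 1 year. The higher genes moved further, with a median log2 fold change of 2.32 against -0.92 for the lower ones, and a median of 0.00 over all genes tested. Of the called genes, 335 moved by at least 1 log2 unit. The groups did not overlap in 248 of the 300 higher genes and in 130 of the 155 lower genes. Over all tested genes, groups did not overlap towards higher in 11.5% and towards lower in 11%. The call itself draws on the same separation, so these counts describe the called genes and test nothing. The first principal component of the knockout libraries held 46.8% of the variance. It placed the 2-month libraries between -70.8 and -50.7 and the 1-year libraries between 14.8 and 87.1. These positions do not carry the run term. Within run C they were -50.7 at 2 months and 14.8 and 48.4 at 1 year. The second component, with 24.8% of the variance, placed run C between -65.7 and -18.7 and runs A and B between 9.94 and 64.1.

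The run that holds both ages was also fitted on its own, with 1 library against 2. There 697 of 16454 genes were called in edgeR (4.24%), 557 higher and 140 lower, and 251 of them were among the 455. The 2-month library has no partner in this fit and is assumed to vary like the 1-year pair. All 455 genes had the same sign in run C alone, and in each of its 1-year libraries all 455 lay on the called side of the 2-month library. These are the libraries on which the fit with run terms rests, so the agreement in sign is not separate evidence. Without 2-month replicate 3, the sole young knockout library of run C, 0 genes were called in edgeR and 1393 had an unadjusted p under 0.05. In a fit of the 7 knockout libraries with run terms 0 were called, with 1383 at an unadjusted p under 0.05. In the fit of all 13 libraries, 23.1% of the tested genes had an unadjusted p under 0.05, and DESeq2 called 6.97% higher and 2.35% lower. The counts by these rules given for gene lists are to be read against these shares. With the replicate number as a block added to run, 24 genes were called, and 1298 with the block in place of run. With the share of Xist reads as a covariate 13 were called, and 23 with the covariate on a log2 scale, a setting added after seeing the data.

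The 12 leading higher genes were ranked by p among protein-coding genes whose groups do not overlap. The first was Ctnnd2 (chromosome 15, 30172593 to 31029341, GRCm38), which encodes delta-catenin, a partner of cadherins. It had 2.88, 4.18 and 2.11 CPM at 2 months and 19.5, 28.8, 15.8 and 15.4 CPM at 1 year. All 4 older libraries stood above all 3 younger ones, and the older run B library replicate 2 was the highest. The log2 fold change was 2.90 (SE 0.32, adjusted p = 9.84e-04 in edgeR), and 2.86 (SE 0.50, adjusted p = 1.41e-06 in edgeR) in run C alone.

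Cadm3, a cell adhesion molecule of the nectin-like family (chromosome 1, 173333258 to 173367695), had 1.30, 2.20 and 0.649 CPM at 2 months and 11.8, 11.5, 6.87 and 7.14 CPM at 1 year. Its log2 fold change was 3.57 (SE 0.39, adjusted p = 9.84e-04 in edgeR). Adhesion genes were represented further down the ranking as well. Of 27 tested cadherin, catenin and nectin genes, 5 were higher (Ctnnd2, Cadm3, Ctnna3, and, named after their values were seen, Ctnna2 and Nectin3) and 1 was lower, where 2.04% of all tested genes were higher and 1.05% lower. The median log2 fold change of the list was 0.38, against 0.00 over all genes. The lower gene was Cdh13, which encodes T-cadherin, a cadherin anchored to the membrane by a lipid. It had 764, 848 and 645 CPM at 2 months and 389, 308, 439 and 235 CPM at 1 year, so all older libraries lay below all younger ones (log2 fold change -1.03 with SE 0.24, adjusted p = 0.0371 in edgeR).

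Map2, which encodes a microtubule-associated protein of dendrites (chromosome 1, 66175273 to 66442583), was the most abundant of the leading higher genes at 2 months. It had 11.1, 12.3 and 8.60 CPM at 2 months and 59.0, 90.4, 35.8 and 49.8 CPM at 1 year, a log2 fold change of 2.50 (SE 0.29, adjusted p = 0.00167 in edgeR). Map1b, another microtubule-associated protein (chromosome 13, 99421446 to 99516540), had 2.31, 4.62 and 1.78 CPM at 2 months and 177.3, 160.4, 11.1 and 7.66 CPM at 1 year. The older run B libraries thus stood far above the older run C libraries, which in turn stood above every young library. The fitted value for Map1b was 2.24 (SE 0.33, adjusted p = 0.00921 in edgeR). Dpysl2, which encodes a protein of axon growth also called CRMP2 (chromosome 14, 66802864 to 66868688), showed the same order, with 0.577, 1.54 and 0.974 CPM at 2 months and 23.7, 26.0, 7.06 and 6.11 CPM at 1 year (log2 fold change 2.71 with SE 0.36, adjusted p = 0.00518 in edgeR).

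Pid1 and Dpyd did not follow that order. Pid1, which encodes an adaptor protein known from adipocytes (chromosome 1, 84036296 to 84364180), had 4.61, 5.94 and 3.65 CPM at 2 months and 27.8, 43.2, 40.2 and 24.8 CPM at 1 year. Its older libraries of both runs intermingled, and the log2 fold change was 2.90 (SE 0.39, adjusted p = 0.00591 in edgeR). Dpyd encodes dihydropyrimidine dehydrogenase, which breaks down uracil and thymine (chromosome 3, 118562129 to 119432924). It had 2.74, 5.28 and 4.14 CPM at 2 months and 11.4, 21.5, 26.5 and 24.1 CPM at 1 year, with the highest level in run C (log2 fold change 2.83 with SE 0.39, adjusted p = 0.00591 in edgeR). Sgcd, which encodes delta-sarcoglycan of the dystrophin complex, had means of 3.49 ± 1.03 and 16.8 ± 5.07 CPM (SD, n = 3 and 4). Kcnma1, a calcium-activated potassium channel, had 5.99 ± 0.93 and 23.4 ± 5.60 CPM. Slc38a1, a transporter of glutamine, had 0.577, 0.660 and 0.0811 CPM at 2 months and 11.4, 15.4, 3.33 and 3.53 CPM at 1 year. Nbea, a scaffold protein of membrane traffic, had 2.88, 2.86 and 2.03 CPM at 2 months and 20.4, 28.3, 7.19 and 8.69 CPM at 1 year, and was not called in run C alone (1.94, adjusted p = 0.0510 in edgeR). In Slc38a1 and Nbea the older run B libraries stood above the older run C libraries, and these above every young library, as in Map1b. Ctnnd2, Cadm3, Map2 and Dpp6 had this order too. Dpp6 had 24.8 and 28.8 CPM in the older run B libraries and 7.45 and 20.9 CPM in the older run C libraries. Sgcd, Kcnma1, Slc38a1 and Nbea had log2 fold changes of 2.62, 2.10, 4.28 and 2.10, with edgeR adjusted p-values from 0.00518 to 0.00925.

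**Figure D1:**
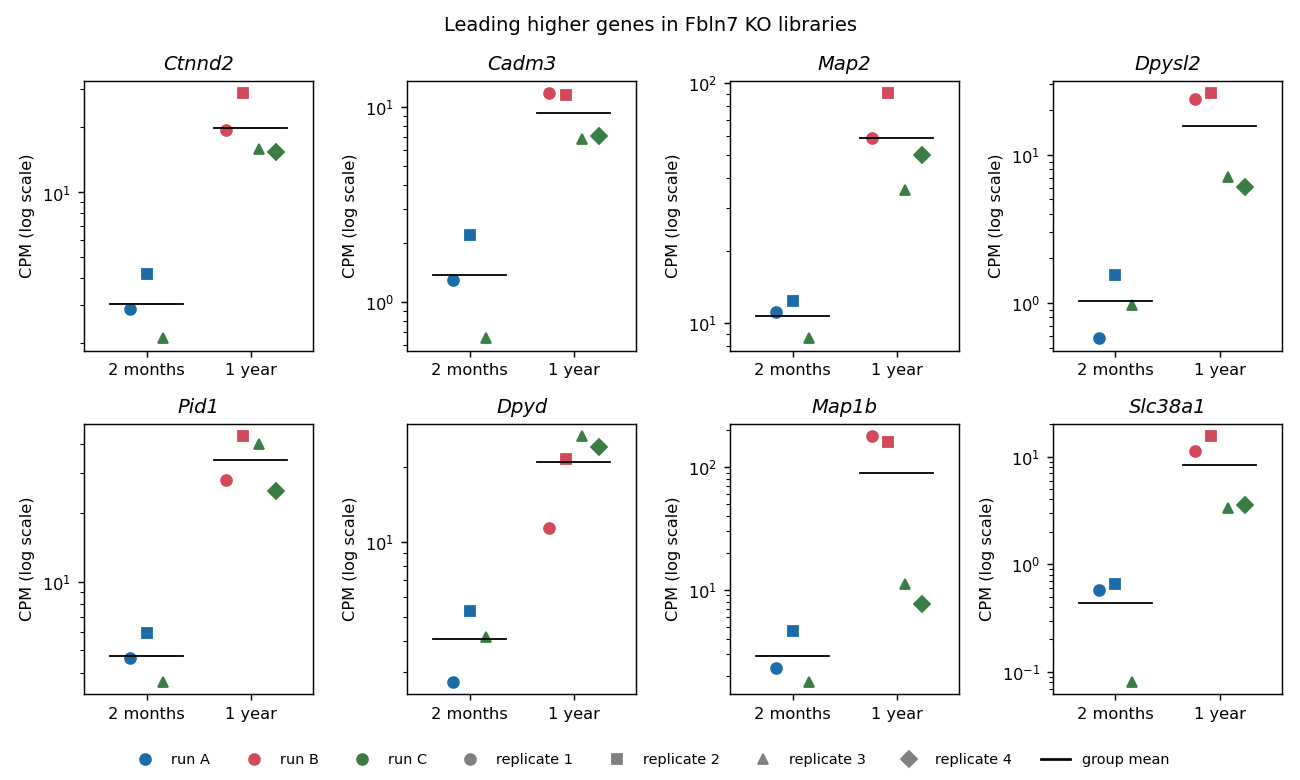
CPM of 8 of the 12 leading higher genes (vertical axes, log scale) in the knockout libraries at 2 months and 1 year (horizontal axis); each point is a library, its colour the run, its shape the replicate number, and the line the group mean. All 1-year points lie above all 2-month points, and in Map1b the run B libraries reach 177.3 and 160.4 CPM while run C stays at 11.1 and 7.66 CPM.

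Total gene reads and the deposited TPM differed for some leading higher genes. Where in the gene these reads lie was not tested. The deposited TPM values, which weigh reads by transcript length, are listed at 0 for Dpp6, a potassium channel partner protein of neurons, in every run C knockout library, although 1-year replicates 3 and 4 had 114 and 284 total gene reads of it against 12 in 2-month replicate 3. The older run B libraries had Dpp6 TPM values of 1.31 and 1.24, and all 3 young libraries were listed at 0. In total gene reads Dpp6 was called with a log2 fold change of 4.09 (SE 0.53, adjusted p = 0.00485 in edgeR). Ctnnd2, by contrast, was also higher in TPM, with 0.272, 0.181 and 0.124 at 2 months and 1.54, 2.48, 1.89 and 0.705 at 1 year. It was not called in limma on log2 of TPM plus 1 (log2 fold change 1.01, adjusted p = 0.123). Of the 300 called higher genes, 30 were listed at a TPM of 0 in both older run C libraries, and 224 (74.7%) had a higher TPM in both than in the young run C library, against 30.3% of all genes tested. Of the 155 lower genes, 144 (92.9%) had a lower TPM in both, against 33.4%. These TPM values come from the same libraries as the calls. The called higher genes were also long: their median gene length was 119 kb, against 61.1 kb for the lower genes and 25.3 kb for all tested, and 53.2% spanned over 100 kb, against 34.2% and 16.5%.

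Some transcripts known from brain cells, Snap25 and Mobp among them, were high in run B and close to 0 elsewhere. Snap25, a protein of synaptic vesicle release, had 63.7 and 59.4 CPM in 1-year replicates 1 and 2, 0.262 and 0.147 CPM in replicates 3 and 4, and at most 0.0811 CPM at 2 months. Mobp, a myelin protein of oligodendrocytes, had 37.5 and 33.1 CPM in the same 2 libraries, 0.0654 and 0.515 CPM in the other 1-year libraries and 0 reads in all 3 libraries at 2 months. The list of 16 neuron genes, drawn up after the values had been seen, summed to 219 to 289.2 CPM in the 4 run B libraries of both genotypes and to 15.2 to 42.8 CPM in the other 9. Lists of 8 astrocyte and 8 oligodendrocyte genes, also drawn up afterwards, summed to 269.4 to 332.4 and 228.2 to 264 CPM in run B, against 97.43 to 213.9 and 45.36 to 87.78 CPM elsewhere, so other genes of these lists were present in every library. In edgeR 0 of the 16 neuron genes were called, with 6 at an unadjusted p under 0.05 and 3 in DESeq2. Of the 8 oligodendrocyte genes 0 were called in edgeR, with 2 at an unadjusted p under 0.05 and 0 in DESeq2. Of the 8 astrocyte genes 3 were called higher in edgeR, Slc1a2, Ndrg2 and Aldoc, where 2.04% of all tested genes were higher. Slc1a2, a glutamate transporter, had 87.8 and 87.1 CPM in the older run B libraries and 1.05 and 2.28 CPM in the older run C libraries. In run C alone Slc1a2 and Aldoc were not called (3.25 and 1.10 against 3.84 and 1.26 in the fit with run terms, adjusted p = 0.420 and 0.358 in edgeR), and Ndrg2 was (2.39, adjusted p = 6.38e-05 in edgeR). Among the 300 called higher genes, 67 (22.3%) were at least 2-fold higher in the older run B than in the older run C knockout libraries, against 9.4% of all tested, and 35 (11.7%) were at least 2-fold higher in run C, against 4.24%. Their median log2 ratio of run B over run C was -0.20. The part of these transcripts in the called genes was not tested. Without all run B libraries, a setting added after seeing the data, 695 genes were called and 340 were shared with the 455. Ctnnd2 then had a log2 fold change of 2.82, Cadm3 3.48, Dpysl2 2.63 and Map1b 2.23, each still called in edgeR, with adjusted p-values from 4.55e-04 to 0.0172. Of 64 named genes, 57 kept their side of the threshold without run B and 7 lost their call, with edgeR adjusted p-values from 0.0508 to 0.0741. Their log2 fold changes without run B were -0.64 for Lrig1, 1.35 for Krt6b, -0.72 for Ccnd2, -0.96 for Cdh13, -0.58 for Tgfbr3, 0.89 for Amotl2 and 0.69 for mt-Co1, against -0.63, 1.54, -0.76, -1.03, -0.61, 0.99 and 0.80 with all libraries. Without all run A libraries 13 of the 64 kept their side and 51 lost their call.

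Some genes of the basement membrane and its attachments were called lower at 1 year: 3 of 19 laminin and basement membrane genes and 4 of 20 basal and hemidesmosome genes, with 0 higher, where 1.05% of all tested genes were lower. Frem2 and Lama3 are on both lists. Of these, the called gene with the lowest log2 fold change was Col7a1 (chromosome 9, 108953586 to 108984875), the type VII collagen of anchoring fibrils. It had 153.9, 185.4 and 162.0 CPM at 2 months and 87.1, 47.8, 57.7 and 52.6 CPM at 1 year. The highest older library, replicate 1, stood well below the lowest younger one. The log2 fold change was -1.58 (SE 0.23, adjusted p = 0.00844 in edgeR), and also -1.58 in run C alone. Frem2, a basement membrane protein of the Fraser complex (chromosome 3, 53513938 to 53657355), had 69.5, 115.2 and 71.8 CPM at 2 months and 31.6, 33.4, 35.3 and 35.6 CPM at 1 year. Its 1-year libraries were nearly level with each other, and the log2 fold change was -1.11 (SE 0.20, adjusted p = 0.0145 in edgeR).

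Type IV collagen forms the sheet of the basement membrane from chains that pair in fixed combinations. Col4a2 had 74.5, 56.3 and 51.8 CPM at 2 months and 23.6, 30.9, 29.9 and 21.7 CPM at 1 year (log2 fold change -1.08 with SE 0.21, adjusted p = 0.0223 in edgeR). Its partner Col4a1 had 37.5, 31.7 and 31.65 CPM at 2 months and 13.3, 20.5, 16.15 and 12.96 CPM at 1 year. Its groups did not overlap either, but it missed the threshold with a log2 fold change of -0.92 (SE 0.29, adjusted p = 0.0832 in edgeR). Col4a5 and Col4a6, a second pair, had log2 fold changes of -0.74 and -0.89 (adjusted p = 0.0217 and 0.0462 in edgeR). Col4a3, at a low level, was higher, with 0.577, 1.10 and 0.162 CPM at 2 months and 0.415, 1.31, 3.14 and 2.58 CPM at 1 year, groups that overlap. Col4a5 and Col4a3 were not called in run C alone (-0.68 and 4.04, adjusted p = 0.137 and 0.0662 in edgeR). Col4a1 and Col4a6 were named after their values were seen.

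Col4a1 and Col4a2 are transcribed in opposite directions from start sites 21 bases apart, and their promoter windows are shown because both genes lay lower at 1 year and their windows overlap. Each window is 300 bases, 250 before and 50 after the start site, from RefSeq on GRCm38.p6, written 5′ to 3′ on the strand of its gene. Capitals mark the 78 bases that the windows share, as reverse complements. The Col4a1 window is chr8:11312777-11313076 on the minus strand and the Col4a2 window chr8:11312555-11312854 on the plus strand.
Col4a1: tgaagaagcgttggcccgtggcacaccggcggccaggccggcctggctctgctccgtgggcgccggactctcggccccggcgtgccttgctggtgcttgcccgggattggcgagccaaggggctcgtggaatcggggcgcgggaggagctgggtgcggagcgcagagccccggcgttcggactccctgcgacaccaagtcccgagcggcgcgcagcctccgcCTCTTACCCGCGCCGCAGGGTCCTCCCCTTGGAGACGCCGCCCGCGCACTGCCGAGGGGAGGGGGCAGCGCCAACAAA
Col4a2: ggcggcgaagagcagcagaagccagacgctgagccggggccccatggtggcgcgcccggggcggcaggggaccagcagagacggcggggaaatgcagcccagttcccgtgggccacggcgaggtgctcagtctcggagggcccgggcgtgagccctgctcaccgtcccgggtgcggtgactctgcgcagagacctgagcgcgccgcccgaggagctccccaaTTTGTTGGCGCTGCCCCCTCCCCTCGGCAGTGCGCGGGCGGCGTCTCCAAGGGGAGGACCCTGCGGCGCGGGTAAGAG
The GC content of the windows is 74% and 73.7%. Neither holds the TATA box TATAAA, the AP-1 site TGANTCA or the cAMP response element TGACGTCA on either strand, which says only that these letters are not in these windows. Over all 32851 promoter windows of the table, 13.6% hold TATAAA, 7.81% TGANTCA and 1.79% TGACGTCA. TGANTCA was in 9.09% of 319 windows of 230 called higher genes and 7.3% of 137 windows of 101 called lower genes, against 5.39% for the genes tested. TGACGTCA was in 1.25% and 0% of these windows, against 2.96%. TATAAA was in 8.78% and 7.3%, against 7.27%. These shares are descriptions and were not tested. The start sites of Col4a5 and Col4a6, also opposite in direction, lie 1343 bases apart on chromosome X.

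Laminins, which bind integrins of hemidesmosomes, were lower in part. Lama3, a chain of laminin-332, had 312.9, 345.7 and 238.6 CPM at 2 months and 250.3, 177.7, 158.9 and 137.5 CPM at 1 year, and its groups overlapped through 1-year replicate 1. The log2 fold change was -0.75 (SE 0.17, adjusted p = 0.0314 in edgeR), and the call was lost in run C alone (-0.71, adjusted p = 0.117 in edgeR). Lama5, a chain of laminin-511, had 71.3, 90.8 and 90.8 CPM at 2 months and 51.7, 37.6, 52.0 and 49.9 CPM at 1 year, with no overlap (log2 fold change -0.97 with SE 0.22, adjusted p = 0.0335 in edgeR). Of 19 laminin and basement membrane genes tested, 0 were higher and 3 lower, with a median of -0.23. Of 20 basal keratinocyte and hemidesmosome genes tested, 0 were higher and 4 lower (Col7a1, Frem2, Col4a2 and Lama3), with a median of -0.61. The hemidesmosome integrins Itga6 and Itgb4, named after their values were seen, missed the threshold with -0.64 and -0.74 (adjusted p = 0.0654 and 0.0576 in edgeR).

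**Figure D2:**
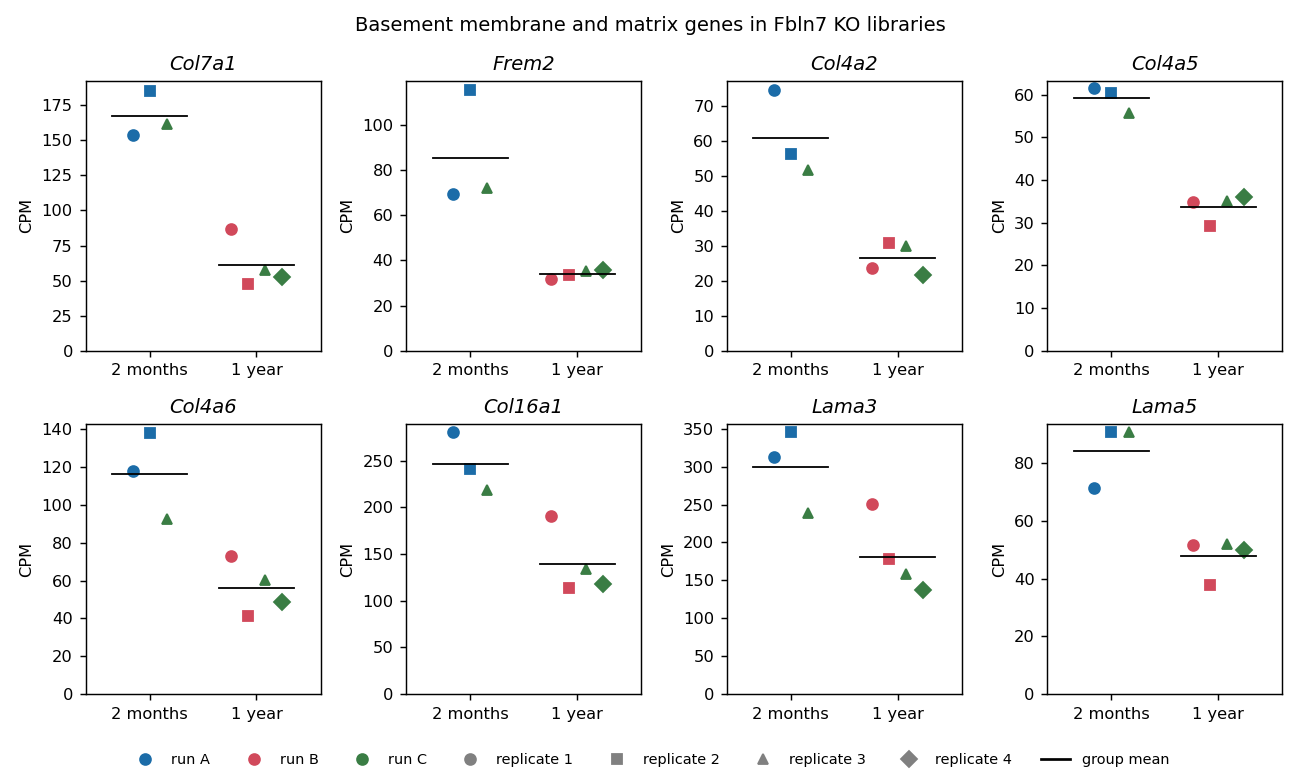
CPM (vertical axes, from 0) of 8 called collagen, laminin and Frem2 genes in the knockout libraries at 2 months and 1 year (horizontal axis); points are libraries coloured by run, lines are group means. In Col7a1 the older libraries lie at 87.1 CPM or below and the younger at 153.9 CPM or above, while in Lama3 1-year replicate 1 at 250.3 CPM overlaps the younger group.

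Collagens as a whole did not move one way. Of 22 tested, 3 were higher (Col27a1, Col6a2 and Col4a3) and 5 lower (Col7a1, Col4a2, Col4a5, Col16a1 and Col4a6), where 2.04% of all tested genes were higher and 1.05% lower. The median log2 fold change was 1.20, above 0 although more members were called lower. The higher ones were scarce, and Col27a1 was not called in run C alone (2.31, adjusted p = 0.232 in edgeR). Col6a2, a chain of the microfibrillar type VI collagen that is also on the fibroblast list, had 0.144, 0 and 0.243 CPM at 2 months and 0.693, 6.54, 6.41 and 7.44 CPM at 1 year. The lower ones were abundant: Col16a1, for example, a collagen associated with fibrils, had 280.5, 240.6 and 218.4 CPM at 2 months and 190.3, 113.4, 134.3 and 117.3 CPM at 1 year. The summed CPM of the collagen list was 2466 to 3172 at 2 months and 1760 to 2555 at 1 year. Among fibulins and elastic fibre partners, a single gene of 14 was higher, Fbln1, with 2.12 ± 0.34 CPM at 2 months and 7.88 ± 2.86 CPM at 1 year (log2 fold change 2.48 with SE 0.56, adjusted p = 0.0321 in edgeR). Of 18 matrix proteases and inhibitors, the single gene Timp2, an inhibitor, was higher (log2 fold change 2.90 with SE 0.59, adjusted p = 0.0308 in edgeR) and the single gene Adam8, a protease, lower (-1.59, SE 0.29, adjusted p = 0.0182 in edgeR). Of 16 integrins tested 0 were called in edgeR, with 8 at an unadjusted p under 0.05, and DESeq2 called 2 higher and 3 lower.

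Il1r2, a leading lower gene, encodes the decoy receptor of interleukin-1 (chromosome 1, 40074079 to 40125231). It had 122.8, 135.7 and 151.7 CPM at 2 months and 109.6, 73.7, 67.8 and 60.8 CPM at 1 year, with replicate 1 again closest to the younger group. Its log2 fold change was -1.33 (SE 0.19, adjusted p = 0.00688 in edgeR). The signalling receptor Il1r1 was also lower, from 85.1 ± 12.96 to 45.3 ± 10.2 CPM (log2 fold change -0.74 with SE 0.17, adjusted p = 0.0323 in edgeR). These were the called members among 16 inflammation genes tested, 0 higher and 2 lower, with a list median of 0.23, where 1.05% of all tested genes were lower. Of 14 interferon response genes tested 0 were called in edgeR, with 4 at an unadjusted p under 0.05, 1 in DESeq2 and a median of -0.45.

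Wnk2, a kinase that regulates ion transport, had 278.0, 298.6 and 228.6 CPM at 2 months and 124.1, 114.9, 134.9 and 119.1 CPM at 1 year (log2 fold change -1.08 with SE 0.17, adjusted p = 0.00925 in edgeR). Slc2a12, a glucose transporter, had 220.4, 220.1 and 218.8 CPM at 2 months and 133.5, 111.0, 123.2 and 92.3 CPM at 1 year (log2 fold change -1.12 with SE 0.18, adjusted p = 0.0095 in edgeR). In both genes the younger and the older libraries formed separate bands. Xpc, the damage sensor of nucleotide excision repair, was lower from 65.6 ± 9.14 to 35.6 ± 7.31 CPM (log2 fold change -1.06 with SE 0.19, adjusted p = 0.0156 in edgeR). Ikbke, a kinase of innate immune signalling, was lower from 58.1 ± 2.50 to 30.98 ± 7.69 CPM, and Sorl1, a sorting receptor, from 74.7 ± 3.60 to 52.5 ± 13.4 CPM. Ccdc3, Man1c1 (a mannosidase of glycan trimming) and Cecr2 (a chromatin remodelling protein) had log2 fold changes of -1.01, -1.64 and -1.08. Gm21992 (-1.04) overlaps Rbm4, Rbm4b and Rbm14 in the annotation, so its reads are uncertain. Of the other leading genes, Cadm3, Dpp6, Nbea and Slc2a12 overlap a protein-coding gene as well.

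Genes that mark stem cell populations of the epidermis were lower in 2 of 15 tested, with 0 higher and a median of -0.30, where 1.05% of all tested genes were lower. Lgr6, a receptor for R-spondins that marks stem cells of the upper follicle and interfollicular epidermis, had 153.4, 192.2 and 121.6 CPM at 2 months and 102.1, 84.4, 91.0 and 72.9 CPM at 1 year (log2 fold change -0.74 with SE 0.18, adjusted p = 0.0438 in edgeR). Lrig1, an inhibitor of EGF receptor signalling that marks junctional zone cells, had 201.7 ± 25.6 CPM at 2 months and 149.0 ± 15.3 CPM at 1 year (log2 fold change -0.63 with SE 0.16, adjusted p = 0.044 in edgeR). Neither passed in run C alone (-0.59 and -0.54, adjusted p = 0.232 and 0.353 in edgeR). Ccnd2, which encodes cyclin D2, was the called member among 30 cell cycle genes, 0 higher and 1 lower, with a log2 fold change of -0.76 (SE 0.19, adjusted p = 0.044 in edgeR) and a list median of -0.15. Its call was lost in run C alone (-0.59, adjusted p = 0.323 in edgeR). Cdkn1a, the cell cycle inhibitor p21, was higher at 1 year, 1 of 14 genes on the senescence list, where 2.04% of all tested genes were higher. On that list 2 genes had an unadjusted p under 0.05 in edgeR, against 23.1% of all tested, and DESeq2 called 1. Cdkn1a had 15.9, 20.2 and 19.3 CPM at 2 months and 19.8, 34.4, 44.3 and 69.2 CPM at 1 year, so replicate 1 lay within the younger group (log2 fold change 1.49 with SE 0.34, adjusted p = 0.0388 in edgeR).

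Krt1 and Krt10 mark the spinous layer above the basal cells. Of 14 spinous genes tested, 6 were called higher (Ptgs1, Dsg1b and Krt10, and, named after their values were seen, Krt1, Notch3 and Grhl3) and 0 lower, where 2.04% of all tested genes were higher. The median log2 fold change was 1.32. Krt10, the keratin of spinous cells, had 1656, 1424 and 866.1 CPM at 2 months and 920.2, 1913, 1897 and 3094 CPM at 1 year. Replicate 1 at 1 year lay within the younger group while the other 3 lay above it. The log2 fold change was 1.76 (SE 0.38, adjusted p = 0.0341 in edgeR). Ptgs1, which encodes cyclooxygenase-1, and Dsg1b, a desmosomal cadherin, had log2 fold changes of 1.62 and 1.04 (adjusted p = 0.0197 and 0.0305 in edgeR). In both, 1-year replicate 1 was the lowest older library, at 30.1 and 62.0 CPM, and replicate 4 the highest, at 73.3 and 162 CPM. Krt10 and Dsg1b had values of -0.12 and -0.047 in the knockout libraries of run B against those of run A, where age and run cannot be told apart.

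Of 26 granular and cornified genes tested, 1 was called, Pnpla1, a lipid enzyme of the skin barrier, although the median of the list was 4.75, 22 of 26 had an unadjusted p under 0.05, and DESeq2 called 20 higher. Over all tested genes these shares were 23.1% and 6.97%. Pnpla1 had 5.91, 7.04 and 3.98 CPM at 2 months and 4.57, 10.03, 12.2 and 18.5 CPM at 1 year (log2 fold change 2.04 with SE 0.45, adjusted p = 0.0314 in edgeR). The summed level of the list was 247.5, 292.7 and 218 CPM at 2 months and 260.1, 1794, 1477 and 1371 CPM at 1 year. Replicates 2, 3 and 4 at 1 year thus stood about level and replicate 1 stood with the younger libraries. In the wild type, the 1-year sums were 231.2, 284 and 1509 CPM.

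Several lists of other cell types were high in the same libraries. The follicle sheath and bulge list had 2 of 15 genes called higher, Lgr5 and Krt6b, and 0 lower, where 2.04% of all tested genes were higher. Lgr5, a receptor that marks stem cells of the lower follicle, had 0.432, 0.220 and 0.325 CPM at 2 months and 1.11, 6.83, 6.41 and 12 CPM at 1 year (log2 fold change 5.44 with SE 1.05, adjusted p = 0.0222 in edgeR). Krt6b did not share that pattern, with 7.35, 7.70 and 2.27 CPM at 2 months and 16.6, 10.5, 4.45 and 6.26 CPM at 1 year, and was not called in run C alone (1.20, adjusted p = 0.520 in edgeR). The most abundant follicle markers, Krt17, Postn and Krt79, were not called. In run C alone, Krt17 (2.64, adjusted p = 2.45e-13 in edgeR) and Krt79 (3.75, adjusted p = 7.68e-26 in edgeR) were called and Postn (0.18, adjusted p = 0.956 in edgeR) was not. Krt17, a keratin of the outer root sheath, had 50.9, 48.6 and 69.6 CPM at 2 months and 58.5, 343, 378 and 511 CPM at 1 year (log2 fold change 3.33 with SE 0.91, adjusted p = 0.087 in edgeR).

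Of 13 T cell genes 2 were called higher and 0 lower. For this list and those that follow, the share over all tested genes was 2.04% higher and 1.05% lower, and a count of 1 rests on a single gene. Trdc, the constant region of the delta receptor chain, was scarce, with 0.144, 0.220 and 0 CPM at 2 months and 0, 1.02, 2.55 and 2.28 CPM at 1 year. Its groups overlapped, since 1-year replicate 1 was at 0 (log2 fold change 7.34 with SE 1.80, adjusted p = 0.044 in edgeR). The T cell list summed to 12.4 to 21.1 CPM at 2 months and 32.4 to 66.4 CPM at 1 year. The Langerhans and myeloid list, with 0 of 11 called in edgeR, 11 at an unadjusted p under 0.05 and 8 called higher in DESeq2, summed to 65.2 to 90.4 CPM at 2 months and 95.6 to 443.5 CPM at 1 year. Cd74, the invariant chain of antigen presentation and the most abundant gene of that list, had 17.0 CPM in 1-year replicate 1 and 121, 127 and 56.8 CPM in replicates 2 to 4, against 11.8 to 19.8 CPM at 2 months. Fibroblast genes summed to 27.7 to 32.0 CPM and 70.6 to 142.6 CPM, and 1 of 11 tested was called higher, Col6a2. Of 5 erythroid genes 1 was called higher, Hba-a2, a haemoglobin chain, with 0, 0 and 0.649 CPM at 2 months and 0.554, 6.54, 17.8 and 26.4 CPM at 1 year. Of 7 melanocyte genes 1 was called higher, the receptor Kit, with 0.288, 0.440 and 0.162 CPM at 2 months and 0.693, 2.47, 3.07 and 3.75 CPM at 1 year. The melanocyte sums overlapped, with 42.7 to 55.4 CPM at 2 months and 38.5 to 67.9 CPM at 1 year. The most abundant members, Mitf, Pmel and Dct, were not called and had log2 fold changes of -0.06, -0.51 and 4.31. In edgeR 0 of 15 sebaceous and 0 of 10 hair shaft genes were called, with 8 and 7 at an unadjusted p under 0.05, while DESeq2 called 5 and 6. Endothelial, muscle and adipocyte lists had 0 of 4, 0 of 3 and 0 of 2 tested genes called in edgeR, with 1, 2 and 1 at an unadjusted p under 0.05 and 1, 0 and 0 in DESeq2.

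These lists bear on the bulk measurement as a whole. In bulk libraries, fewer cells of a type and less RNA per cell cannot be told apart. The summed level of the basal and hemidesmosome list was 23800 to 25180 CPM at 2 months and 26190 CPM in 1-year replicate 1, against 17130 to 18740 CPM in replicates 2 to 4. The libraries with high suprabasal sums were thus those with low basal sums. The part of other cells in the called genes was not tested. Without 1-year replicate 1, 725 genes were called, 451 of them among the 455. Without 1-year replicates 2, 3 and 4 the counts were 1192, 1664 and 81, so a rise was not particular to replicate 1. In replicate 1, 254 of the 300 called higher genes lay above all younger knockout libraries and 131 of the 155 lower genes below, against 289 to 293 and 148 to 155 in replicates 2 to 4. Over all genes tested, 30.7% lay above and 29.6% below in replicate 1, and 31.2 to 37.9% and 28.8 to 33.6% in the others.

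**Figure D3:**
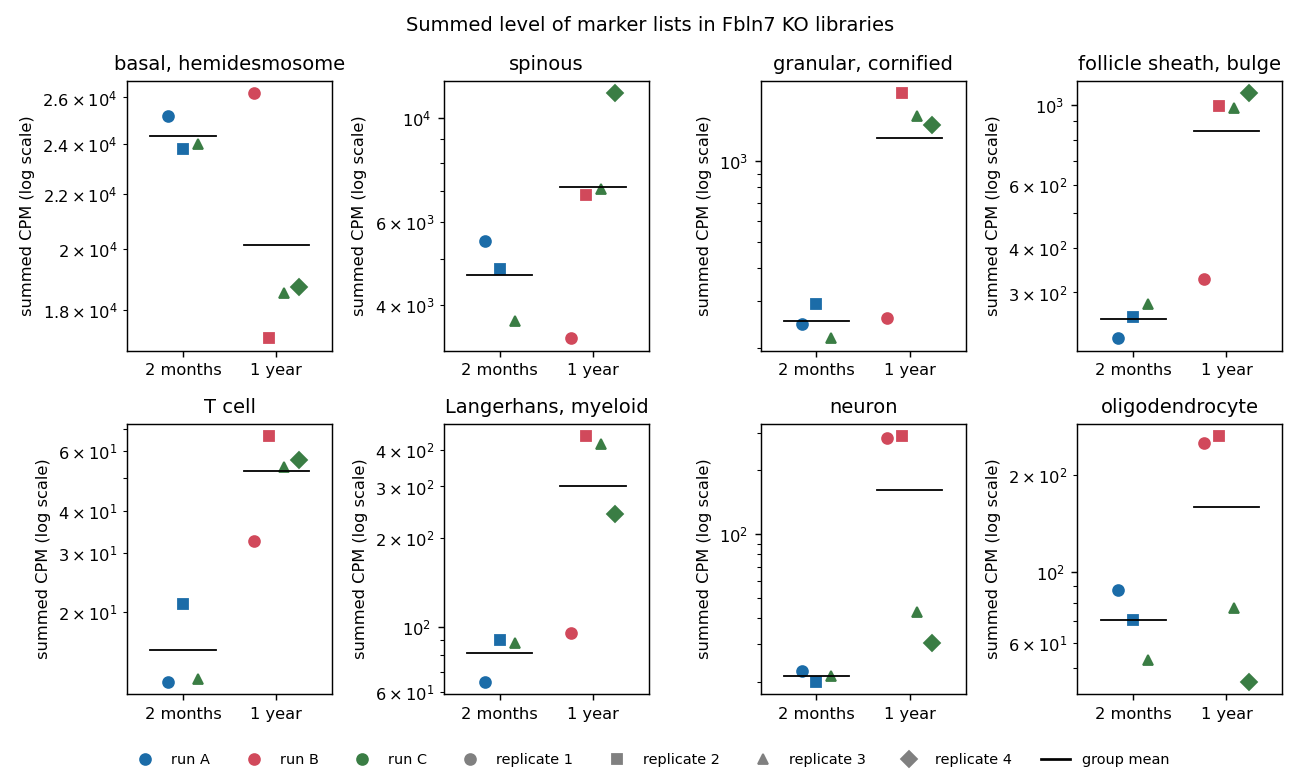
Summed CPM of 8 marker lists (vertical axes, log scale) in the knockout libraries at 2 months and 1 year (horizontal axis); points are libraries coloured by run, lines are group means. Granular genes reach 1371 to 1794 CPM in 1-year replicates 2 to 4 and 260.1 CPM in replicate 1, while neuron genes are high in the 2 run B libraries alone.

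Signalling lists each had 2 to 4 called members, to be read against the 3.09% called over all genes and an overall median of 0.00. In the TGF-beta and BMP list, 3 of 31 genes were higher, Id1, Id4 and Bmp6, and 1 lower, Tgfbr3, with a median of -0.05. Bmp6, a BMP ligand, had 0.156 ± 0.163 CPM at 2 months and 4.90 ± 3.86 CPM at 1 year (log2 fold change 4.89 with SE 1.14, adjusted p = 0.0368 in edgeR). Id1 and Id4 encode inhibitors of helix-loop-helix factors and are targets of BMP signalling. Id4 had 1.87, 2.42 and 2.43 CPM at 2 months and 5.82, 9.74, 7.78 and 8.17 CPM at 1 year, with no overlap (log2 fold change 1.90 with SE 0.41, adjusted p = 0.0291 in edgeR). Tgfbr3, the co-receptor betaglycan, had 168.5, 189.3 and 155.7 CPM at 2 months and 110.4, 109.6, 113.6 and 101.8 CPM at 1 year (log2 fold change -0.61 with SE 0.14, adjusted p = 0.0367 in edgeR). Id4 and Tgfbr3 were not called in run C alone (1.68 and -0.56, adjusted p = 0.103 and 0.304 in edgeR). In the Notch list 2 of 17 were higher, the receptor Notch3 and Nrarp, a feedback regulator of Notch, with a median of 0.03. Notch3, also on the spinous list, had a log2 fold change of 1.00 and overlapping groups, with 28.9 CPM in 1-year replicate 1 and 44.9 to 79.4 CPM in the other 3. Nrarp had 14.0, 8.58 and 12.2 CPM at 2 months and 15.9, 27.0, 29.4 and 29.1 CPM at 1 year (log2 fold change 1.46 with SE 0.33, adjusted p = 0.0321 in edgeR).

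In the Wnt list, Lgr5 was higher and Lgr6 lower among 34 genes, with a median of -0.20. Of 25 EGF receptor and MAP kinase genes, the phosphatase Dusp5 and the kinase Mapk3 were higher and 0 were lower, with a median of 0.35. Dusp5, which acts on nuclear ERK, had 5.62, 5.72 and 8.68 CPM at 2 months and 9.42, 22.7, 20.3 and 30.0 CPM at 1 year (log2 fold change 1.65 with SE 0.35, adjusted p = 0.0289 in edgeR). Of 17 Hippo genes, Amotl2, an angiomotin that binds YAP, and Tead4, a partner factor of YAP, were higher and 0 lower, with a median of -0.09. Amotl2 had 33.9, 22.9 and 34.9 CPM at 2 months and 62.5, 59.0, 55.7 and 78.2 CPM at 1 year and its groups did not overlap (log2 fold change 0.99 with SE 0.23, adjusted p = 0.0333 in edgeR). Mapk3 and Tead4 were not called in run C alone (0.77 and 1.24, adjusted p = 0.116 and 0.0583 in edgeR). Among 20 immediate early genes, 19 had a positive log2 fold change with a median of 1.69. Their summed level overlapped between ages, with 922, 2914 and 961.9 CPM at 2 months and 1728, 2238, 1651 and 3519 CPM at 1 year, and young replicate 2 lay above 3 of the 4 older libraries. The called gene was 1 of the 20, Ier3, where 2.04% of all tested genes were higher. Ier3 had 0.931 ± 0.193 CPM at 2 months and 4.83 ± 2.71 CPM at 1 year.

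All 13 genes of the mitochondrial genome had a positive log2 fold change, with a median of 0.60, and 2 were called higher, mt-Nd4 and mt-Co1, where 2.04% of all tested genes were higher. mt-Co1, a subunit of cytochrome c oxidase, had 1324, 1248 and 1685 CPM at 2 months and 2998, 3747, 2335 and 2970 CPM at 1 year (log2 fold change 0.80 with SE 0.21, adjusted p = 0.0481 in edgeR). In run C alone mt-Co1 and mt-Nd4 had values of 0.63 and 0.57 and were not called (adjusted p = 0.432 and 0.434 in edgeR). Cytosolic ribosomal protein genes had 0 of 29 called in edgeR, with 2 at an unadjusted p under 0.05 and 1 in DESeq2, although all 29 had a positive log2 fold change, with a median of 0.21. Heat shock genes had 0 of 13 called in edgeR, with 5 at an unadjusted p under 0.05 and 4 in DESeq2.

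The same contrast in the wild type called 30 genes (0.204%), and the difference between genotypes in the age effect was tested directly. That interaction had 0 genes (0%) past the threshold in edgeR, with 595 at an unadjusted p under 0.05 and a smallest adjusted p of 0.976, and DESeq2 gave 0 as well. Without a filter on low counts 103 genes passed in edgeR. Frem2 had a log2 fold change of -1.11 in the knockout and -0.26 in the wild type, an interaction of -0.85 (SE 0.22, unadjusted p = 0.00165, adjusted p = 0.976 in edgeR). Col7a1 had -1.58 and -0.96, an interaction of -0.62 (SE 0.26, adjusted p = 0.976 in edgeR). Ctnnd2 had 2.90 and 2.76, and Il1r2 had -1.33 and -1.16. The larger number of calls in the knockout does not show that the genotypes aged differently.

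**Figure D4:**
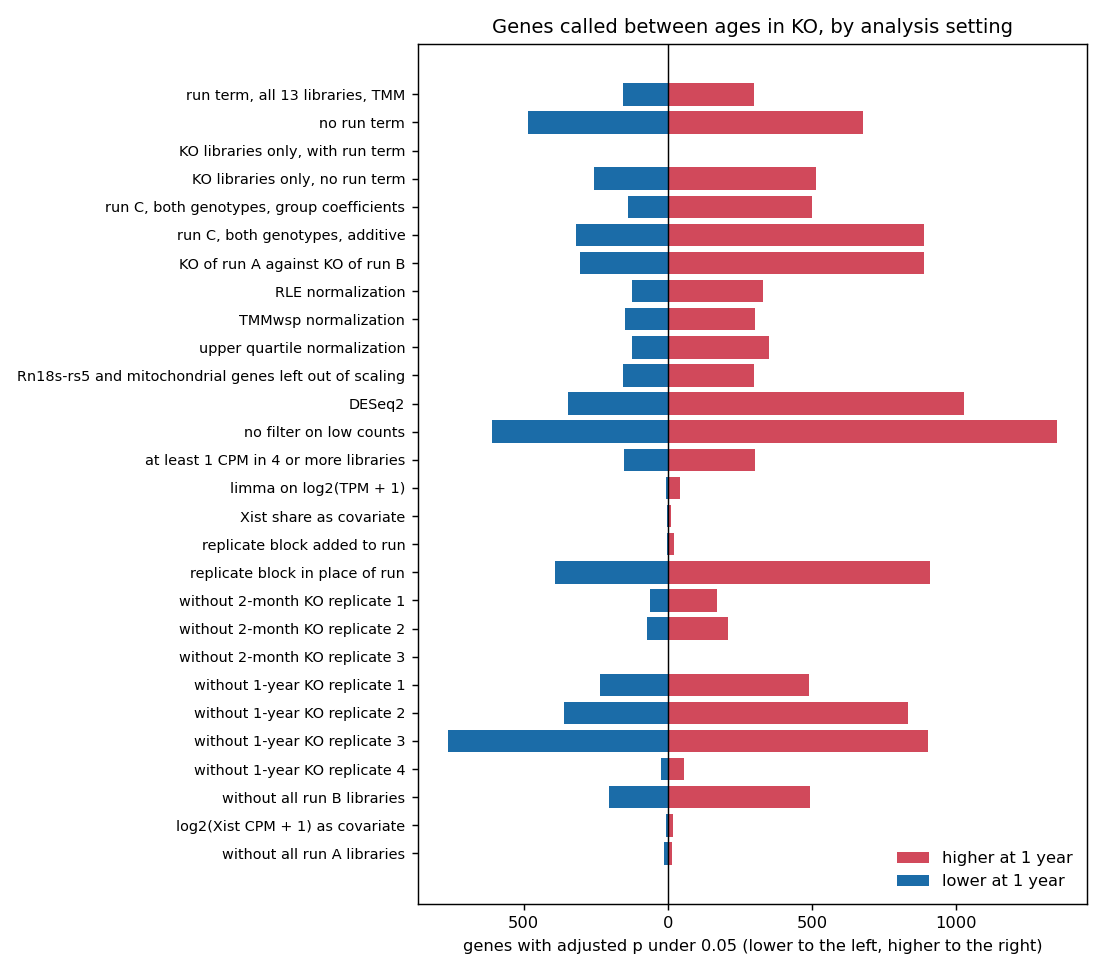
Number of genes called between ages in the knockout (horizontal axis, lower genes to the left of 0 and higher genes to the right) under each analysis setting (rows). The fit with run terms calls 300 higher and 155 lower genes, and the count is 0 without 2-month replicate 3 and 1664 without 1-year replicate 3.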

How the data were processed

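Libraries were made from total RNA of sorted cells with a stranded low-input kit, per the labels' protocols, and the submitters' processing notes name mm10. The aligner, counter and annotation are not given in the sources used here. Per the file headers, the authors deposited for each gene a count of total gene reads, a TPM and an RPKM. In 11681 of 49585 genes a library has reads but a TPM of 0. RPKM was not used. Gene positions came from GENCODE M21 (GRCm38) for 14317 of 14740 tested symbols.

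The test was edgeR 4.0.16 under R 4.3.3 (on counts, quasi-likelihood, robust, TMM, filterByExpr with a minimum count of 10) in all 13 libraries with group and run, the run being read from the deposited names. The p-values were adjusted over all genes. DESeq2 1.42.0 and limma 3.58.1, on log2 of the deposited TPM plus 1, were alternatives. The fit was tested on simulated data. A count of 0 allows 3 reads, counting error only. No replicates matched within sampling noise.

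Leading genes were the 12 of smallest p per direction: protein-coding, adjusted p under 0.05, absolute log2 fold change of at least 1, mean of at least 1 CPM, groups not overlapping. List members named were up to 3 called per direction, and for other cell types the 3 most abundant. The members and lists were chosen with earlier results of these data known. Same-numbered knockout libraries correlated in their deviations by 0.203, 0.1 and 0.207. Number 3 is in run C at both ages, whereas numbers 1 and 2 share run A at 2 months and run B at 1 year. Among libraries of different number, 2-month replicate 3 correlated by 0.222 with 1-year replicate 4, also of run C. The 2-month replicates 1 and 2 correlated by 0.16 and -0.023 with 1-year replicates 2 and 1. Some members are not reported here.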

Additional observations from a re-analysis of the deposited data

Results flagged for a closer look

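Of 63 groups of 4 libraries examined, 3 held a library far from the rest. Chance gives about 1 in 20, so this number is close to what chance gives. The follicle sheath and bulge genes summed to 327 CPM in 1-year knockout replicate 1 and to 978 to 1080 CPM in the other 3 libraries. The hair shaft and inner root sheath genes summed to 523 CPM in replicate 4 and to 340 to 363 CPM in the others. The fibulin and elastic fibre genes summed to 320 CPM in replicate 3 and to 262 to 269 CPM in the others.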

How the results depend on the processing

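The count of 455 called genes moved with the terms of the model and the libraries. It was 1163 without the run term, 0 with the 7 knockout libraries and run, 770 with these and no run term, 1205 for age shared by both genotypes in run C (639 for age in the knockout there), 1193 for run A against run B, 1374 in DESeq2, 1960 without a filter on low counts, 47 in limma on TPM and 13 with the Xist share. The replicate block added to run gave 24 genes, of which 22 were among the 455, and the replicate block in place of run gave 1298. Leaving out a knockout library gave 0 to 1664: 0 without 2-month replicate 3, 234 and 283 without 2-month replicates 1 and 2, and 725, 1192, 1664 and 81 without 1-year replicates 1 to 4. The 3 additions chosen after seeing the data gave 695 without run B, 30 without run A and 23 with log2(Xist CPM + 1) as covariate. In run C alone DESeq2 called 292 genes, and leaving out an older library there leaves no test. The interaction went from 0 to 103 genes without the filter. The cause was not tested for any of these. Other normalizations gave 449 to 476 genes. Of the 64 named genes with alternatives, Fbln7 among them, 53 lost their call with the replicate block added to run and 11 stayed on their side of the threshold. The numbers lost were 54 with the Xist share, 48 with log2(Xist CPM + 1), 51 without run A and 7 without run B. In limma on TPM 52 lost their call and 2 were reversed. With the 7 knockout libraries and run, 61 of 61 lost it, and without 2-month replicate 3, 63 lost it and 1 was reversed. Reversed values were Dpp6 -0.0083 and Ctnna3 -0.0012 on TPM, Fbln7 -0.40 without 2-month replicate 3 (up to 2.72 when another knockout library was left out, and up to 3.52, without run A, over all its alternatives), and Dsg1b -0.047 and Krt10 -0.12 for run A against run B. Depth limits genes near 0 reads, such as Fbln7.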
